A study of Mus musculus with 56 samples.

Results

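The 10 autophagy genes described here, Tfeb, Ulk1, Becn1, Atg14, Wipi1, Map1lc3a, Map1lc3b, Gabarapl1, Sqstm1 and Bnip3, were taken from the 25415 rows of the liver gene table by their GENCODE symbols. All 10 were among the 25399 genes that could be tested. The table covers 56 livers from 9 weeks old C57BL/6J females. For 7 days the animals had been fed only by day (daytime-restricted feeding, DRF) or only by night (nighttime-restricted feeding, NRF, which served as reference), in a cycle with 12 h of light. Collection was at zeitgeber time (ZT, counted in h from lights on) 0, 4, 8, 12, 16, 20 and 24, and each of the 14 groups holds 4 libraries. All groups shared strain, sex and age, no genotype or drug differed between them, and the libraries of a group are numbered 1 to 4 in the labels. The labels do not name the animals, so p-values measure the spread between these libraries.

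Macroautophagy encloses cytoplasm in a double membrane and delivers it to the lysosome, and in liver it is known as a response to fasting that supplies amino acids, lipids and glucose precursors. The kinase ULK1 starts the process, the lipid kinase complex of BECN1 and ATG14 marks the growing membrane with phosphatidylinositol 3-phosphate, WIPI1 reads that lipid, and the ATG8 proteins (LC3 and GABARAP families) are conjugated to the membrane and bind receptors such as SQSTM1 (p62) and BNIP3 that carry cargo. TFEB is a transcription factor of autophagy and lysosome genes. The present values are RNA levels and do not measure autophagic flux.

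Levels are given as scaled counts. They come from undoing the logarithm in the deposited table, which yields whole counts. Each library's counts keep the scaling factor fitted from that table, where 1 unit stood for between 304 and 723 recovered counts. The scaled counts of a library summed to between 886638 and 1112668. The 56 libraries held between 323 and 729 M recovered counts (M, mega). These exceed the reads of such libraries and are not called reads, so the spread between animals is the measure of precision. Correlations between libraries of one group, across genes with a mean scaled count of at least 1, lay between 0.965 and 0.990. The 6 hepatocyte markers were above 0 in every library, with Alb, the serum albumin gene, between 71460 and 126000 scaled counts. Of the markers of other liver cells, all 3 erythroid genes had a higher rhythm-adjusted mean under DRF, while 0 of the 5 genes each of Kupffer cells, sinusoidal endothelium, stellate cells, cholangiocytes and leukocytes differed in that mean. The length index is the rank correlation between gene length and a library's deviations, over genes with a mean scaled count of at least 1. Its group means lay between -0.231 and 0.180. It was negative at ZT0, ZT4 and ZT8 and positive from ZT12 to ZT24 in both regimens. At ZT24 it was 0.174 under DRF and 0.180 under NRF, against -0.123 and -0.182 at ZT0, the same time of day. Fits with this index as covariate are given at the end. In bulk liver, fewer cells of a type and less RNA per cell cannot be told apart.

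The genes differed widely in level per length. Per kilobase of exon, the mean over all libraries was 65.4 scaled counts for Map1lc3a, 61.9 for Bnip3 and 53.6 for Sqstm1. It was 13.03 for Gabarapl1, 7.20 for Ulk1, 4.79 for Wipi1 and 2.69 for Atg14. Becn1 with 1.74, Map1lc3b with 1.26 and Tfeb with 0.26 scaled counts per kilobase were lowest. Exons of Becn1 overlapped those of the opposite-strand gene Cntd1 over 43.9% of their length, and the same held for 28.3% of Gabarapl1, 22.3% of Bnip3 and 17.3% of Sqstm1. The library protocol keeps strand, but its use in counting is not given in the sources used here, and without it such reads cannot be told apart.

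To ask how the regimen changed daily rhythms, a 24 h cosine was fitted to each regimen with limma, and a call required an adjusted p under 0.05 over all 25399 genes. Under DRF 7 of the 10 genes were rhythmic, against 34.9% of all genes tested, and under NRF 8 of 10 were, against 43.6%. The rhythm itself, in its timing or size, differed between regimens for 8 of 10, against 38.8% of all genes, and Tfeb and Map1lc3a were the exceptions. The 7 genes rhythmic in both regimens (23.2% of all genes) were Ulk1, Atg14, Wipi1, Map1lc3b, Gabarapl1, Sqstm1 and Bnip3. Of these, 6 peaked 8 to 12 h apart, or phase-inverted. Over all genes tested, 5888 were rhythmic in both regimens, and 2997 of those were phase-inverted (11.8% of all genes). With the values as deposited, the shift of Sqstm1 was 6.81 h and fell short of this class. Map1lc3b shifted by less. The median size of the rhythm difference was 0.68 on the log2 scale for the 10 genes and 0.13 for all genes tested. Values for all genes, here and below, include many low ones. Of the 25399 genes, 13748 had a mean scaled count of at least 1, as all 10 genes did. On the scale used, log2(scaled count + 1), changes of low genes are understated. The part of expression level in these comparisons was not tested.

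**Figure D1:**
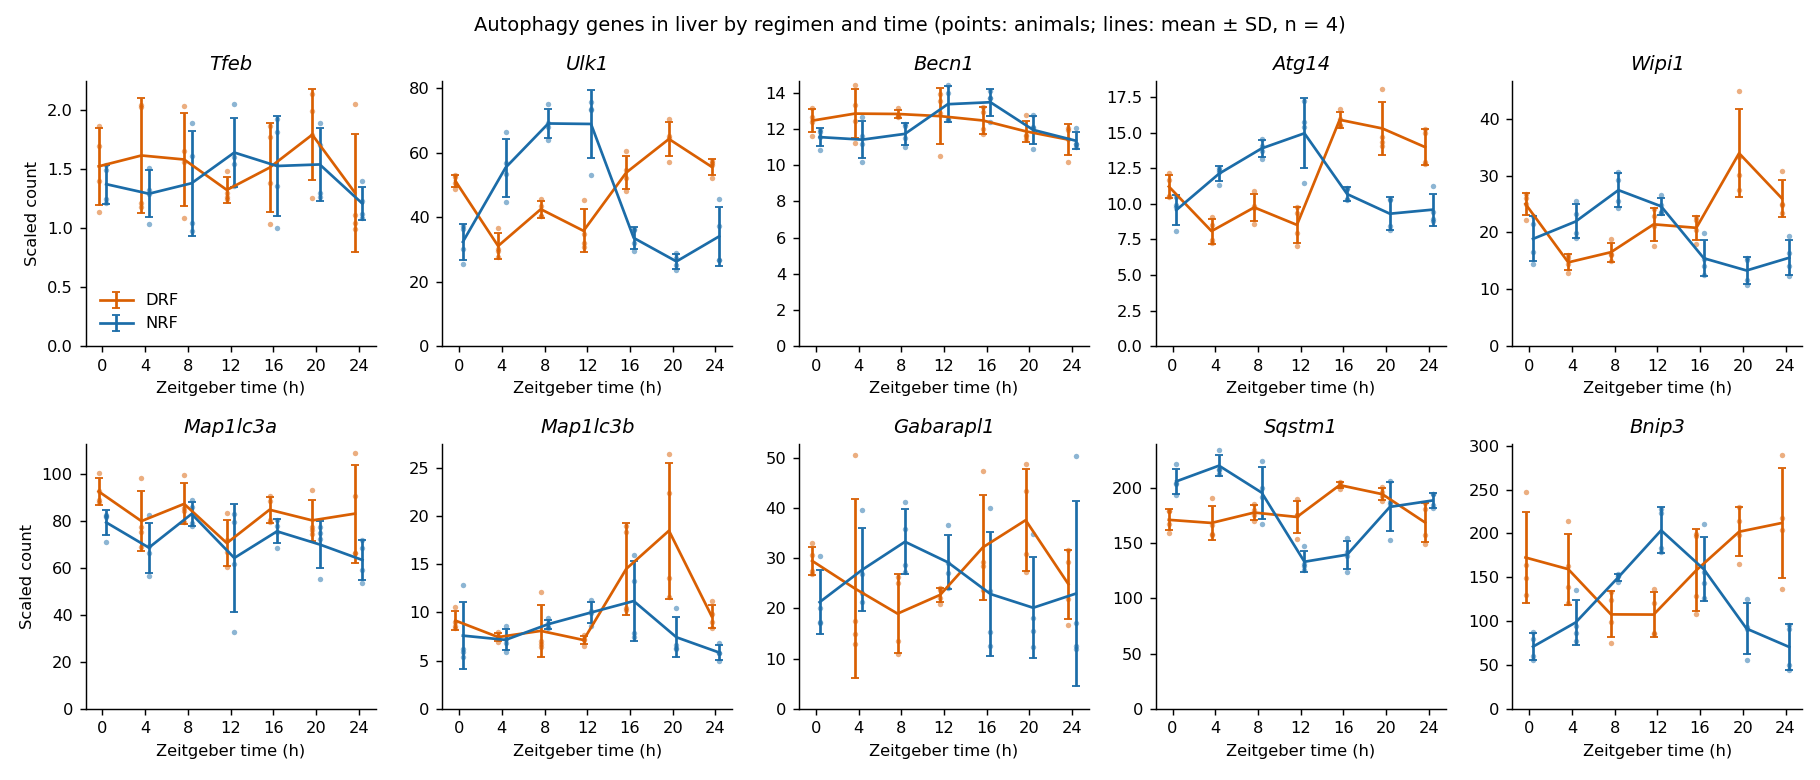
Scaled counts of the 10 genes (vertical axes, from 0) by zeitgeber time in hours, DRF in orange and NRF in blue, with points for single animals and lines and bars for mean ± SD of 4. Ulk1, Atg14, Wipi1, Gabarapl1 and Bnip3 rise in the light phase under NRF and in the dark phase under DRF. Sqstm1 is highest at ZT4 under NRF and at ZT16 under DRF, where Atg14 also has its highest DRF mean. Tfeb, Becn1 and Map1lc3a stay nearly level.

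Ulk1, the kinase that starts autophagy, was the gene with the clearest exchange of high and low times. Under NRF its 4 values were 63.9, 69.4, 68.2 and 75.1 scaled counts at ZT8, and 25.2, 23.7, 27.4 and 28.9 at ZT20. Under DRF they were 40.4, 43.6, 45.7 and 40.3 at ZT8, and 64.5, 57.2, 70.4 and 65.1 at ZT20. The regimens did not overlap at any of the 7 times, with NRF above DRF at ZT4, ZT8 and ZT12 and DRF above NRF at the other 4. Ordered by mean, the groups ran from NRF ZT8 (69.1 ± 4.6, SD, n = 4), NRF ZT12 and DRF ZT20 down to NRF ZT0, DRF ZT4 and NRF ZT20 (26.3 ± 2.3), and 12 of the 13 neighbouring pairs in that order overlapped. At ZT20 Ulk1 was 2.39-fold higher under DRF (log2 difference 1.26 ± 0.13 (SE), adjusted p = 8.0e-10). Its fitted peak lay at 19.6 ± 0.53 h (SE) in DRF livers and at 8.48 ± 0.31 h in NRF livers, 11.1 ± 0.61 h apart. The fitted peak-to-trough fold was 1.82 under DRF and 2.82 under NRF, with the log2 amplitude lower under DRF by 0.32 ± 0.09 (SE). Its rhythm-adjusted mean did not pass the test (0.04 ± 0.06 on the log2 scale, adjusted p = 0.81).

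Of the lipid kinase complex, Atg14, the subunit that directs the kinase to the forming autophagosome, had its peaks in the dark under DRF and in the light under NRF, as Ulk1 had, whereas Becn1, its scaffold, was called at none of the 7 times. Atg14 had 15.9, 16.7, 15.5 and 15.5 scaled counts at ZT16 under DRF and 11.1, 11.0, 10.3 and 10.2 under NRF. At ZT12 the values were 7.94, 7.03, 9.34 and 9.74 under DRF and 11.5, 15.7, 17.2 and 15.4 under NRF. The regimens were again apart at all 7 times, though ZT0 did not pass the test (0.21 ± 0.10 (SE), adjusted p = 0.14). The peak of Atg14 was fitted at 19.1 ± 0.39 h (SE, DRF) and 9.44 ± 0.58 h (NRF), 9.64 ± 0.70 h apart (adjusted p of the rhythm difference = 8.9e-12). Becn1 stayed between 10.2 and 14.4 scaled counts in all 56 libraries. It was called rhythmic under NRF, with a fitted peak-to-trough fold of 1.18 and a peak at 14.4 ± 0.82 h, and not under DRF (fold 1.08, adjusted p = 0.17). The difference of its rhythms passed (adjusted p = 0.018), but was lost without replicate 2 (adjusted p = 0.095) or without replicate 4 (0.16) and with the values as deposited (0.078).

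Wipi1, which binds the lipid that this complex makes, had its highest group at ZT20 under DRF, with 33.4, 27.4, 45.0 and 30.1 scaled counts. Under NRF the same time was its lowest, with 15.6, 11.7, 10.8 and 15.2. The 2.43-fold difference (log2 1.28 ± 0.14 (SE), adjusted p = 4.0e-09) was close in size to that of Ulk1 at this time. At ZT8 the order was reversed, with 15.0, 18.9, 16.2 and 16 under DRF against 29.3, 24.4, 25.5 and 30.7 under NRF. The fitted peaks, at 19.6 ± 0.52 h and 7.94 ± 0.49 h, lay 11.6 ± 0.71 h apart, and the fitted folds of 1.88 and 1.98 were alike within their errors (amplitude difference -0.04 ± 0.10). Its call at ZT0 was lost whichever replicate number was left out (adjusted p from 0.056 to 0.24), that at ZT16 without replicate 1, 2 or 4 (0.17 to 0.21), and that at ZT4 without replicate 4 (0.068).

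Because several of these genes changed their times of peak together, the RefSeq promoter windows (GRCm38.p6, 250 bases before and 50 after the gene's start) were searched on both strands for 4 motifs. Windows were found for 8 of the 10 genes. The E-box CACGTG, the site of clock and TFEB-type factors, was found in Atg14 (first base at -1, across the start) and Bnip3 (at -108) and is held by 7.15% of the 32851 windows. The hypoxia response core ACGTG, whose letters lie within the E-box, was found in the same 2 genes at these E-boxes only (19.6% of all windows). The forkhead motif GTAAACA was found in none of the 8 (3.65% of all windows), and TGACNNNGC, a core of the NRF2 element, once in Map1lc3b (12.4%). These matches are letters in a window and say nothing of binding. Shown 5′ to 3′ on the gene's strand are Atg14 and Bnip3, with the E-box in capitals, beside Ulk1 and Sqstm1, which also had shifted peaks and hold none of the 4 motifs.
Ulk1 (chr5:110810032-110810331, minus strand): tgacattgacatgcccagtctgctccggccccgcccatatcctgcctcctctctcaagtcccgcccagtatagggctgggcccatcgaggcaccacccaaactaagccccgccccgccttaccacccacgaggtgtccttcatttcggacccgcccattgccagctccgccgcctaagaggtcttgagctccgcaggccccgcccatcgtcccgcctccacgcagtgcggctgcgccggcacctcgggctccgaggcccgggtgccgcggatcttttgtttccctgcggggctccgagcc
Atg14 (chr14:47568385-47568684, minus strand): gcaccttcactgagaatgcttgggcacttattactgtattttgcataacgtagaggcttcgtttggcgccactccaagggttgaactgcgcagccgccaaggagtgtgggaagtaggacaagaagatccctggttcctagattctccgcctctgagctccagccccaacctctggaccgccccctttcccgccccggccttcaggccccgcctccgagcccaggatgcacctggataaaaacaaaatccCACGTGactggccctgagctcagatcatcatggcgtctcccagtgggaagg
Sqstm1 (chr11:50210771-50211070, minus strand): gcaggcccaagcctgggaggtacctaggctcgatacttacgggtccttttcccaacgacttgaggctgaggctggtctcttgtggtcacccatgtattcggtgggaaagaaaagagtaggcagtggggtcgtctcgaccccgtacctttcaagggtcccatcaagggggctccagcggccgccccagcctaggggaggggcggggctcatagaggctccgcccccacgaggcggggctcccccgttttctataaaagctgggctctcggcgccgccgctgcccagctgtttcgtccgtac
Bnip3 (chr7:138909457-138909756, minus strand): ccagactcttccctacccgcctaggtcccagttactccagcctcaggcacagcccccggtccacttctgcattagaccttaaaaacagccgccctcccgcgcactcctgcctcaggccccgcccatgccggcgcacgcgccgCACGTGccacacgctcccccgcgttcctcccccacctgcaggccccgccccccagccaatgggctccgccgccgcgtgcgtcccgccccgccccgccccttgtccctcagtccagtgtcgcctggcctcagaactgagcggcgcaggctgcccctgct

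The 3 ATG8 genes behaved differently from one another. Map1lc3a, which encodes LC3A, was rhythmic in neither regimen (adjusted p = 0.70 under DRF and 0.95 under NRF), and its 28 libraries averaged 82.6 ± 11.9 scaled counts (SD) under DRF and 72.0 ± 12.2 under NRF. Its rhythm-adjusted mean was 0.20 ± 0.07 (SE, log2) higher under DRF, short of the threshold (adjusted p = 0.076), and it differed at 0 of the 7 times. Map1lc3b, which encodes LC3B, was rhythmic in both. At ZT20 under DRF it had 22.4, 13.6, 26.4 and 11.6 scaled counts, a spread of its 4 animals far wider than the 6.52, 7.20, 7.65 and 7.17 at ZT12. Under NRF it had 10.5, 6.196, 6.33 and 6.67 at ZT20, which did not overlap with DRF (log2 difference 1.17 ± 0.22 (SE), 2.24-fold, adjusted p = 0.00012). Its peaks, 18.7 ± 0.58 h (SE) in DRF livers and 12.97 ± 1.1 h in NRF livers, were 5.74 ± 1.3 h apart. The NRF rhythm was not called without replicate 2 (adjusted p = 0.072) or replicate 3 (0.071), and the difference at ZT24 was lost whichever replicate number was left out (0.083 to 0.19).

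Gabarapl1, of the GABARAP branch, had peaks 10.6 ± 1.5 h apart, 19.1 ± 0.98 h (SE) with day feeding and 8.47 ± 1.2 h with night feeding (adjusted p of the rhythm difference = 0.00064). It was also the gene whose animals scattered most. At ZT4 under DRF it had 50.5, 12.9, 17.6 and 14.9 scaled counts, and at ZT24 under NRF 17.0, 12.6, 50.4 and 11.8. In both groups 1 animal lay at about the same high level, above the 48.8 of the highest animal at the DRF peak. The test at single times called 0 of 7 times for Gabarapl1, the nearest being ZT20 (37.6 ± 10.2 under DRF and 20.1 ± 10.1 under NRF (SD, n = 4), adjusted p = 0.081). Without replicate 1, which removes the first of these animals, the size of the rhythm difference was 1.11, and over the 4 leave-outs it ranged from 0.76 to 1.11 on the log2 scale and passed in each. The rhythm within a regimen was less firm, with the DRF call lost without replicate 2 (adjusted p = 0.054) or 3 (0.26) and the NRF call without replicate 2 (0.22) or 4 (0.15).

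The cargo receptors Sqstm1 and Bnip3 differed in when they were high. Sqstm1, whose protein p62 binds ubiquitin-marked cargo and is degraded with it, was highest in the early light phase under NRF. Its 4 values were 216, 217, 234 and 212 scaled counts at ZT4 and 129, 147, 131 and 125 at ZT12. Under DRF it was nearly level, with 157, 167, 158 and 190 at ZT4, 154, 190, 175 and 175 at ZT12, and 204, 198, 202 and 205 at ZT16. Sqstm1 was thus higher under NRF at ZT4 (log2 -0.39 ± 0.08 (SE), adjusted p = 0.00017) and higher under DRF at ZT12 (0.38 ± 0.08, adjusted p = 0.00034) and ZT16 (0.54 ± 0.08, adjusted p = 1.7e-06), with no overlap of groups at any of these times. With the values as deposited, the call at ZT4 was lost (-0.06, adjusted p = 0.080), as was that at ZT0 (-0.01, adjusted p = 0.82). The fitted fold between peak and trough was 1.596 under NRF and 1.19 under DRF, with the log2 amplitude lower under DRF by 0.21 ± 0.05 (SE). The peaks lay at 2.69 ± 0.40 h under NRF and 16.5 ± 1.0 h under DRF, 10.2 ± 1.1 h apart, so that Sqstm1 peaked earlier in the cycle than the other 6 genes rhythmic in both regimens. Its rhythm under DRF was not called without replicate 2 (adjusted p = 0.091) or without replicate 3 (0.14), and the call at ZT0 was lost without replicate 2, 3 or 4 (0.065 to 0.097).

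**Figure D2:**
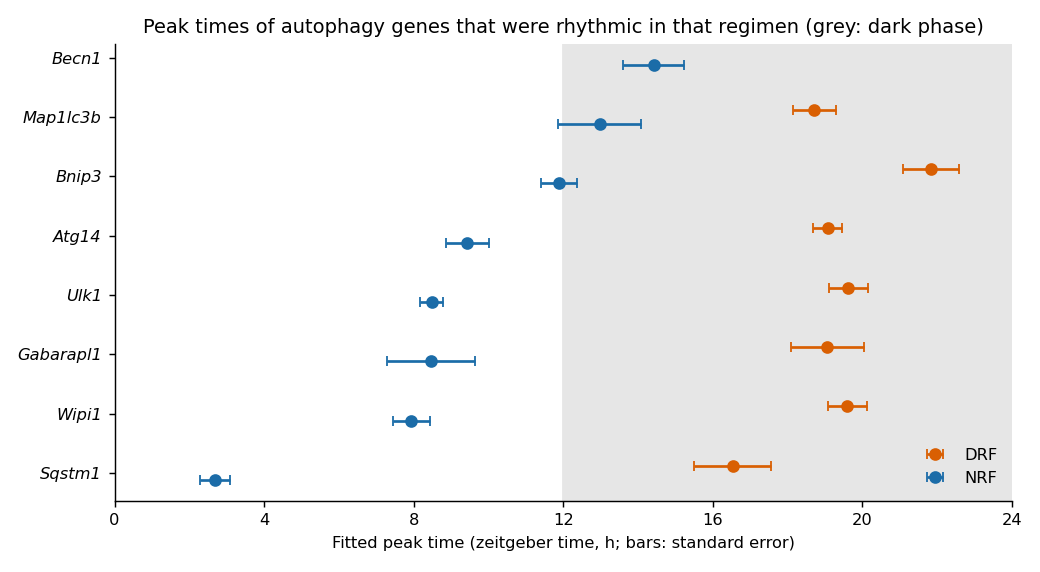
Fitted peak time in zeitgeber hours (horizontal axis, bars are standard errors) of the 8 genes rhythmic in 1 or both regimens, DRF in orange and NRF in blue, with the dark phase in grey. Every DRF peak falls in the dark, between 16.5 h for Sqstm1 and 21.8 h for Bnip3, while NRF peaks run from 2.69 h for Sqstm1 to 14.4 h for Becn1, which has no DRF point because it was not rhythmic there.

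Bnip3, a receptor on the outer mitochondrial membrane for mitophagy, showed the largest difference at a single time. At ZT24 it had 217, 136, 290 and 204 scaled counts under DRF and 91.4, 95.3, 50.5 and 44.8 under NRF. This was 3.04-fold (log2 1.605 ± 0.25 (SE), adjusted p = 7.2e-06), without overlap. At ZT12 it had 86.9, 136, 85.5 and 121 under DRF and 179, 183, 228 and 224 under NRF (log2 -0.94 ± 0.25, adjusted p = 0.0077), a call that was lost without replicate 1 (0.053) or 3 (0.078), as was that at ZT4 without replicate 1, 2 or 4 (0.062 to 0.29). The peaks of Bnip3 lay later than those of the other genes rhythmic in both regimens under DRF, at 21.8 ± 0.75 h, and at 11.9 ± 0.49 h under NRF, 9.95 ± 0.90 h apart. The fitted folds were 1.96 under DRF and 2.90 under NRF.

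Bnip3 was also the only 1 of the 10 genes whose rhythm-adjusted mean differed, against 6.82% of all genes (4.13% higher under DRF). It was higher under DRF by 0.30 ± 0.09 (SE, log2, adjusted p = 0.039), with 28 libraries at 159.9 ± 53.9 scaled counts (SD) under DRF and 120.6 ± 52.9 under NRF. The call was lost without ZT24 (0.27, adjusted p = 0.061) and without replicate 1 (0.29, adjusted p = 0.16), replicate 3 (0.26, adjusted p = 0.17) or replicate 4 (0.26, adjusted p = 0.23), and kept without replicate 2 (0.37). The erythroid markers Hba-a1, Hbb-bs and Alas2 were higher under DRF in 3 of 3, their sum running from 374 to 1324 scaled counts under DRF and from 299 to 823 under NRF, and none was at 0 in any library. Their part in the difference of Bnip3 was not tested.

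Tfeb, the transcription factor of the group, lay between 0.98 and 2.13 scaled counts in all 56 libraries and was rhythmic in neither regimen (adjusted p = 0.96 under DRF and 0.27 under NRF). It differed at 0 of the 7 times, and the regimens overlapped at each. On the scale log2(scaled count + 1) the changes of so low a gene are understated.

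At single times, the number of the 10 genes called is set against the share of all genes called. ZT0 had 4 (16% of all genes), with Ulk1, Wipi1 and Bnip3 higher (7.99%) and Sqstm1 lower under DRF (8.02%). ZT4 had 5 (20.4%), of which Ulk1, Atg14, Wipi1 and Sqstm1 were lower (9.56%) and Bnip3 higher (10.8%). ZT8 had 3 (13%), and Ulk1, Atg14 and Wipi1 were all lower under DRF (7.26%). ZT12 had 4 (15.2%), with Sqstm1 higher (7.07%) and Ulk1, Atg14 and Bnip3 lower (8.11%). From ZT16 on all calls were upward under DRF: 4 genes at ZT16 (15.2%, upward 8.75%), 5 for ZT20 (13.7%, upward 7.68%) and 5 for ZT24 (14.1%, upward 7.1%). Of these 30 calls, 23 were kept when each replicate number was left out in turn, and the 5 of ZT20, Ulk1, Atg14, Wipi1, Map1lc3b and Bnip3, were all among them. Not overlapping between regimens were 5 genes for ZT0 (19.5% of all genes), 4 for ZT4 (22.3%), 6 for ZT8 (18%), 5 for ZT12 (16.2%), 3 for ZT16 (15.9%), 5 for ZT20 (17.6%) and 5 for ZT24 (16.8%).

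**Figure D3:**
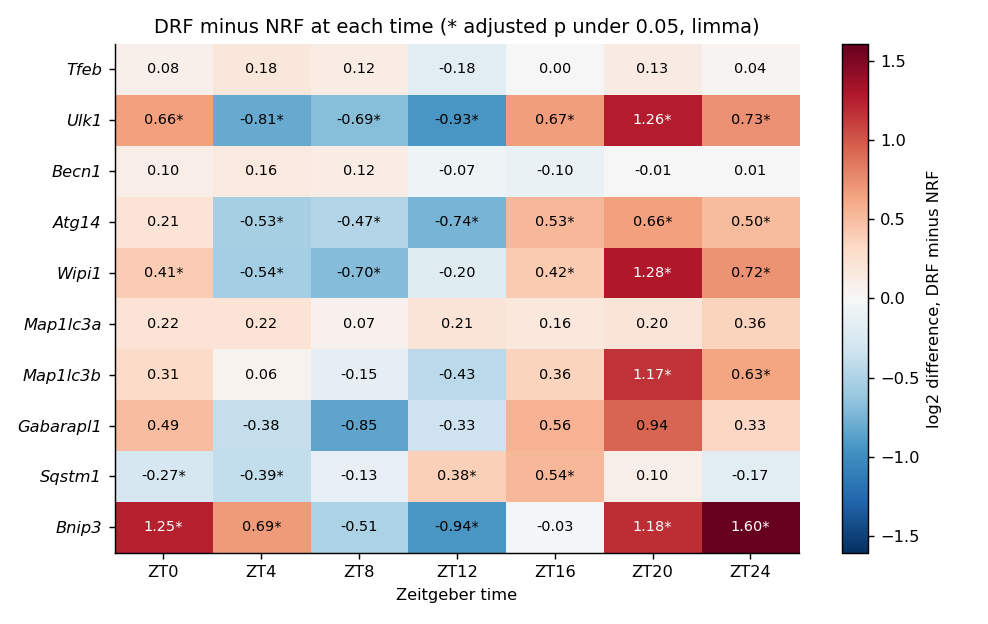
Log2 difference between the group means, DRF minus NRF, for each gene (rows) and zeitgeber time (columns), with red for higher and blue for lower under DRF and an asterisk where the adjusted p was under 0.05. Ulk1 is called at all 7 times and Atg14 and Wipi1 at 6, while Tfeb, Becn1, Map1lc3a and Gabarapl1 are called at none.

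Of the markers of sinusoidal endothelial cells, 4 of 5 had a different rhythm between regimens (38.8% of all genes). Their sum had its extremes where Ulk1 and Wipi1 had theirs under DRF. Atg14 was lowest in the same DRF group but highest at DRF ZT16, and over all 14 groups Ulk1 was highest at NRF ZT8. Stab2 had the largest median of the 5 markers (200 scaled counts) and so weighs most in the sum. The summed group mean of the 5 markers was highest at DRF ZT20 (406 scaled counts) and lowest at DRF ZT4 (316), a 1.29-fold range. Over single libraries the sum ran from 307 to 421 under DRF and from 307 to 434 under NRF. None of these markers was at 0 in any library. Between DRF ZT20 and DRF ZT4 Ulk1 ran from 64.3 ± 5.4 to 31.1 ± 3.9 scaled counts (SD, n = 4), which is 2.07-fold. Of the hepatocyte markers, 2 of 6 had a different rhythm, near the share of all genes. In mean, 1 was higher and 2 were lower under DRF (6.82% of all genes differed in mean). A different rhythm was also called for 3 of 5 cholangiocyte markers and for 1 of 5 each of Kupffer cells and leukocytes. It was called for 0 of 5 stellate cell and 0 of 3 erythroid markers. The part of these cell types in the results was not tested.

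To ask whether DRF profiles were NRF profiles moved by 12 h, DRF at ZT0, 4, 8, 12, 16 and 20 was compared with NRF at ZT12, 16, 20, 24, 4 and 8. With this offset 7 of the 10 genes still differed, against 38.4% of all genes tested. The test compares group means, so it takes in level as well as timing and shape. Most of the pairs also had length indices of opposite sign, such as -0.231 for DRF ZT8 and 0.112 for NRF ZT20. Those of DRF ZT12 and NRF ZT24 shared a sign (0.127 and 0.180). The part of this index in the offset calls is not given here. Map1lc3a, rhythmic in neither regimen, was among the 7. Its largest log2 difference, 0.60, was that of DRF ZT0 against NRF ZT12. There replicate 3 of NRF had 32.9 scaled counts, beside 82.8, 79.4 and 61.7. Without replicate 3 the adjusted p of the limma offset test was 0.056. Ulk1, Atg14, Map1lc3b and Sqstm1 passed also in each of the 4 leave-outs, whereas Wipi1 (adjusted p 0.0505 to 0.22), Map1lc3a (up to 0.16) and Bnip3 (up to 0.29) lost the call in 4, 2 and 3 of them (4 genes remained called without replicate 3 and without replicate 4). Atg14 was lower under DRF by 0.37 (log2) than its NRF counterpart at ZT0 and higher by 0.37 at ZT16. Ulk1 stood apart at DRF ZT8 against NRF ZT20, higher by 0.68, and at DRF ZT0 against NRF ZT12, where the log2 difference was -0.41. Map1lc3b was 0.92 higher at DRF ZT20 than at NRF ZT8, and Sqstm1 0.36 higher at DRF ZT0 than at NRF ZT12. For Gabarapl1 no difference was detectable with the offset (adjusted p = 1.0, largest log2 difference 0.24).

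**Figure D4:**
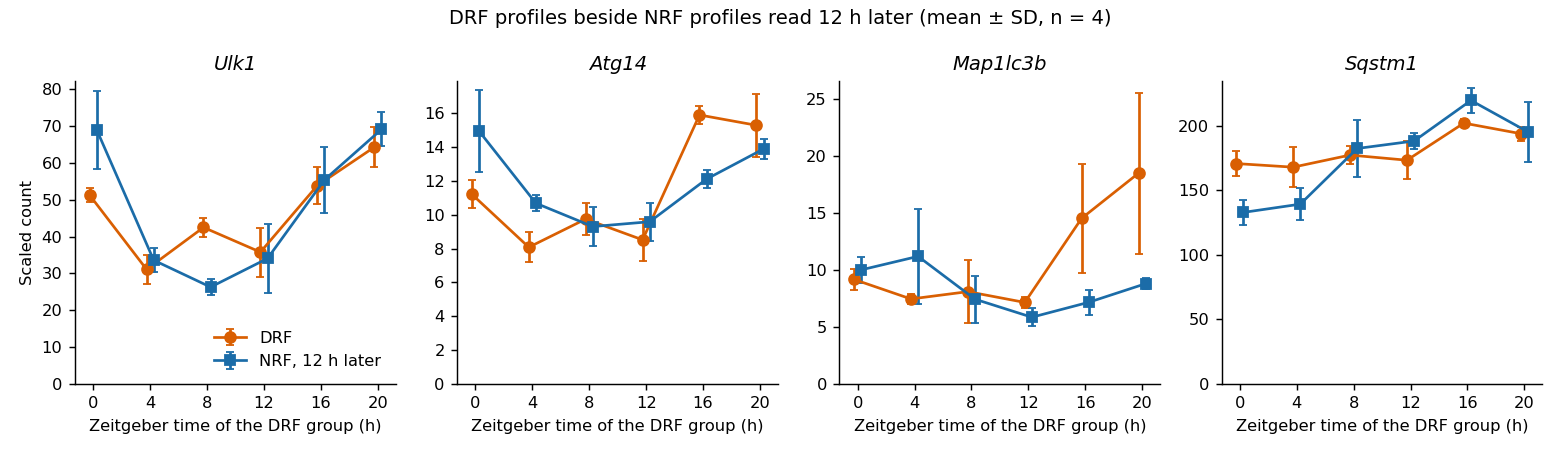
Mean ± SD (n = 4) of scaled counts of 4 genes under DRF (orange circles) at the zeitgeber time on the horizontal axis, beside NRF (blue squares) taken 12 h later in the cycle. The curves come close for Ulk1 at ZT4, ZT12, ZT16 and ZT20 and part at ZT0 and ZT8, Map1lc3b is higher under DRF at ZT16 and ZT20, and Sqstm1 has the flatter curve under DRF.

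ZT0 and ZT24 are the same time of day. Under limma 0 of the 10 genes differed between them under DRF (3.07% of all genes) and 0 under NRF (7.76%). At an unadjusted p under 0.05, 1 gene, Atg14, differed under DRF and 0 under NRF, and with the values as deposited 1 gene under DRF and 3 under NRF passed the adjusted test. For neither of these was the share of all genes counted.

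The wider autophagy and lysosome pathway was described over 124 genes that include the 10. Among the other 114, 85 had a different rhythm between regimens (74.6%, against 38.8% of all genes). Rhythmic under DRF were 79 (34.9% of all genes) and under NRF 82 (43.6%). Of the 59 rhythmic in both (23.2%), 37 peaked 8 to 12 h apart and 8 within 4 h of each other. Over all genes tested, 2997 of the 5888 rhythmic in both peaked 8 to 12 h apart, and those within 4 h were not counted. Over all 124 genes the share with a different rhythm was 75.0%, and the rhythm-adjusted mean was higher under DRF for 12 and lower for 2 (11.3% together, against 6.82% of all genes). The counts of the groups that follow stand beside the same shares of all genes, 38.8% for a different rhythm and 6.82% for a different mean.

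All 5 genes of the ULK complex differed in rhythm. Next to Ulk1, Atg101, a subunit that stabilises the complex, had the largest difference, and its peaks (15.4 h for DRF, 1.596 h for NRF) were close to those of Sqstm1 and not to those of Ulk1. In the lipid kinase complex 7 of 8 differed. Pik3c3, the catalytic subunit VPS34, had peaks at 18.7 h (DRF) and 7.13 h (NRF), 11.6 ± 0.72 h apart. Of the lipid effectors and the ATG9 system 9 of 11 differed, led by Wipi1 and the lipid transfer protein gene Atg2a (21.4 h and 8.02 h). Zfyve1, which encodes the omegasome protein DFCP1, was the 1 gene there with a different mean, higher under DRF by 0.15 ± 0.05 (SE, log2, adjusted p = 0.042).

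Of the conjugation enzymes 7 of 11 differed in rhythm. Atg3, the conjugating enzyme for ATG8 proteins, had its peaks at 6.21 h (DRF) and 17.9 h (NRF), and the protease gene Atg4d peaked at 23.2 h and 12.3 h. Atg5 and Atg7 had higher means under DRF, by 0.17 ± 0.04 (SE, log2, adjusted p = 0.0017) and 0.16 ± 0.05 (adjusted p = 0.035). Of the 5 ATG8 genes 2 differed in rhythm, Map1lc3b and Gabarapl1, a share of 40.0% that is near the 38.8% of all genes.

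Among the receptors 18 of 19 differed in rhythm. The largest differences were those of Calcoco1, with a fitted peak-to-trough fold of 2.51 under DRF and 3.71 under NRF and peaks at 20.02 h and 7.41 h, and of Retreg1, a receptor for the endoplasmic reticulum (3.04-fold and 2.26-fold, 17.9 h and 7.72 h). Besides Bnip3, its close relative Bnip3l (NIX) had a higher mean under DRF (0.15 ± 0.03 (SE, log2), adjusted p = 0.0040). The erythroid values given with Bnip3 stand beside these means too.

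In the group of transcriptional control 9 of 11 differed in rhythm and 0 in mean. Flcn, which encodes folliculin, a regulator of TFEB and of mTORC1 signalling, was 2.58-fold rhythmic under DRF and 2.41-fold under NRF with peaks at 18.8 h and 8.26 h, and the nuclear receptor gene Ppara peaked at 23.5 h and 11.1 h. Of the mTORC1 and AMPK group 12 of 18 differed in rhythm. Mtor itself had peaks at 21.0 h (DRF) and 8.48 h (NRF), and its mean was lower under DRF (-0.15 ± 0.04 (SE, log2), adjusted p = 0.025). Ddit4, an inhibitor of mTORC1, peaked at 11.7 h and 21.2 h, with a mean higher under DRF by 0.31 ± 0.08 (adjusted p = 0.0050), and Sesn2, another inhibitor, was higher by 0.27 ± 0.06 (adjusted p = 0.0028).

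Of the fusion genes 9 of 12 differed in rhythm, Vps11 and Plekhm1 most, and Snap29 was higher in mean under DRF (0.10 ± 0.03 (SE, log2), adjusted p = 0.049). Of the lysosomal genes 15 of 24 differed. Npc1, the lysosomal cholesterol exporter, had the largest difference of the whole list, with fitted folds of 3.11 and 3.14 and peaks at 21.2 h and 9.66 h, 11.5 ± 0.35 h apart. The sialidase gene Neu1 peaked at 19.9 h and 7.81 h. The protease gene Ctsb and the hexosaminidase gene Hexa were higher in mean under DRF, by 0.15 ± 0.04 (adjusted p = 0.0099) and 0.12 ± 0.03 (adjusted p = 0.018). Of the 14 genes of the list with a different mean, the number fell to 2 without replicate 1 and to 9 and 7 without replicates 3 and 4.

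**Figure D5:**
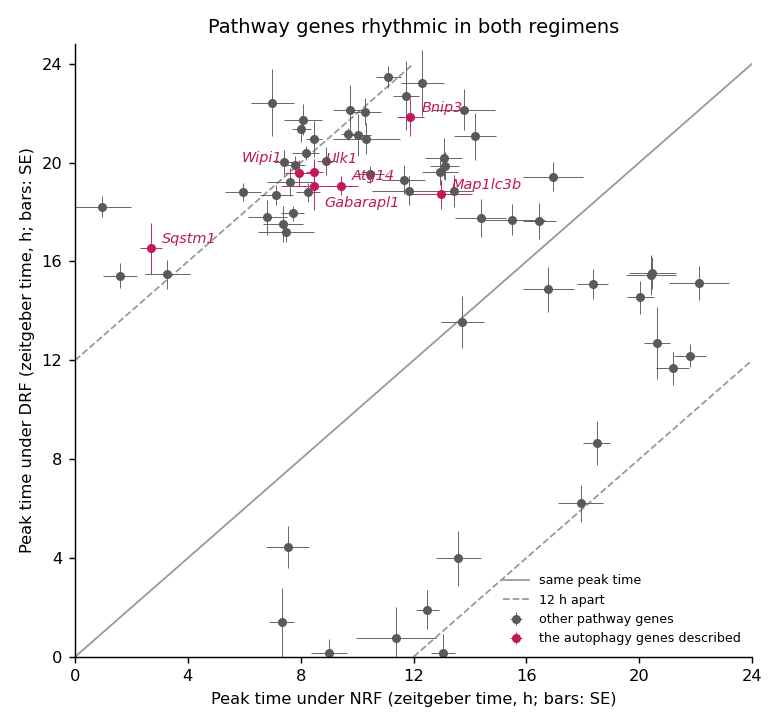
Fitted peak times under NRF (horizontal) and DRF (vertical), in zeitgeber hours with standard errors, of the 66 pathway genes rhythmic in both regimens, the 7 of the 10 genes described in pink. A solid line marks equal peak times and dashed lines a 12 h shift. Of the 66 genes, 43 had peaks 8 to 12 h apart and 8 within 4 h, and Sqstm1 lies at 2.69 h and 16.5 h. Over all genes tested, 2997 of the 5888 rhythmic in both regimens had peaks 8 to 12 h apart.

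For the 4 genes with the largest fitted log2 amplitude averaged over both regimens, Bnip3, Ulk1, Wipi1 and Gabarapl1, the genes with the most similar profile were sought by Pearson's r over the 14 group means among 13748 genes with a mean scaled count of at least 1. These are descriptions, in which all points share the same libraries. Nearest to Bnip3 were Slc2a2 (r = 0.960), the liver glucose transporter gene, the clock repressor gene Nr1d2 (0.946) and D17Wsu92e (0.942). Nearest to Ulk1 were C77080 (0.963), Rcl1 (0.956) and the activin receptor gene Acvr2b (0.950). Wipi1 was nearest to Gle1 (0.969), Dcaf8 (0.954) and Ccndbp1 (0.950), and Gabarapl1 to Neu1 (0.939), which is itself in the lysosomal group, Klf10 (0.929) and Adcy9 (0.926).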

How the data were processed

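The 10 genes, the pathway list and the tests were chosen with earlier results of these data known. The submitters' processing notes name CASAVA 1.8 and featureCounts 1.5.0-p3 and the labels describe ribosomal RNA removal with strand kept, while the molecule field reads polyA RNA. The gene table deposited by the authors is named TPM, but its values are not linear in counts and are treated as a score: value times exon length (GENCODE vM21, GRCm38) followed a logarithm of a whole count, which was inverted for each library. The 10 genes gave whole counts (tolerance 0.05) in all 56 libraries. Of the 25415 genes, 16 gave no such counts and were not tested. For 2197 of the tested genes, the length used came from a search for one that gave whole counts. In 75 others wholeness could not be judged, and 1 had too few values to judge it. The planned tests were kept and run on log2(scaled count + 1) with limma 3.58.1 in R 4.3.3 (trend, empirical Bayes), as a cosine model of period 24 h with its own mean per regimen and as a model of 14 group means, with Benjamini-Hochberg adjustment over 25399 genes and a threshold of 0.05. The filter on a mean deposited value of at least 0.1 removed no gene. The fits were tested on simulated data. Alternatives are given at the end. The text names all 10 genes, up to 2 genes per pathway group for the largest rhythm difference and up to 2 for the largest mean difference and the 3 nearest profiles of 4 genes. The transcript and circRNA tables were not used.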

Additional observations from a re-analysis of the deposited data

Results flagged for a closer look

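In 13 of the 140 sets of 4 animals (10 genes by 14 groups), 1 animal lay apart from the other 3 by Dixon's gap test, which flags about 1 in 20 such sets by chance. Gabarapl1 had such an animal in 2 groups: replicate 1 of DRF ZT4 had 50.51 scaled counts against 12.92 to 17.59 in the other 3, and replicate 3 of NRF ZT24 had 50.41 against 11.82 to 17.01. Map1lc3b stood high in replicate 2 of DRF ZT8 (12.16, others 6.422 to 7.067), in replicate 4 of NRF ZT0 (12.84, others 5.397 to 6.189) and in replicate 1 of NRF ZT20 (10.5, others 6.196 to 6.67).

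Ulk1 was low in replicate 4 of NRF ZT12, at 53.23 against 73.29 to 75.69. Atg14 was high in replicate 2 of DRF ZT20, at 18.07 against 14.04 to 14.68, and the same library was high for Map1lc3a, at 93.0 against 74.26 to 77.38. Map1lc3a was low in replicate 3 of NRF ZT0, at 71.12 against 81.58 to 82.49. Tfeb was high in replicate 3 of DRF ZT24, at 2.048 against 0.9894 to 1.113. In Becn1 3 animals were set apart within narrow groups, at 13.19 in DRF ZT8, 12.76 in DRF ZT20 and 12.04 in NRF ZT24.

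The difference between regimens itself differed between the 7 times (limma interaction test, adjusted over all genes) in 7 of the 10 genes. The share of all genes that passed this test was not counted, so the 7 cannot be set against it. The adjusted p was 2e-15 for Ulk1, 9.65e-14 for Atg14 and 3.67e-11 for Wipi1. It was 1.27e-09 for Sqstm1, 7e-08 for Bnip3, 0.00102 for Map1lc3b and 0.0355 for Gabarapl1.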

How the results depend on the processing

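Of the recomputed counts, 156 stayed within 1.5 times the reported one and 18 did not. Of the recomputed values of single genes, 979 kept their call, or for peak shifts their size within the standard error. A call was lost by 35 and gained by 4, 6 shifts moved in size, and 0 were reversed. A change of sign counted as reversed only where the adjusted p was under 0.05 in 1 or both fits. Signs of uncalled differences could change, as for Becn1 at ZT12 (log2 -0.07, and 0.00042 with the values as deposited). With the values as deposited, 2 genes in place of 1 differed in rhythm-adjusted mean (9 of the pathway list), 1 and 3 differed between ZT0 and ZT24 under DRF and NRF, and the phase shifts were smaller (Sqstm1 6.81 h, Bnip3 8.27 h, Atg14 8.58 h, Ulk1 10.4 h, Wipi1 10.9 h), and the calls of Sqstm1 at ZT0 (adjusted p = 0.82) and ZT4 (0.080), of Wipi1 at ZT16 (0.085) and of the Becn1 rhythm difference (0.078) were lost. Without ZT24, 0 genes differed in mean. In each of these the cause was not tested. Leaving out each replicate number in turn gave 0 to 1 genes with a different mean (2 to 12 of the pathway list), 2 to 3 genes differing at ZT0, 3 to 6 at ZT4, 4 to 6 with the 12 h offset, and 0 to 1 between ZT0 and ZT24 under NRF.

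Same-numbered libraries of different groups did not deviate together (median correlation 0.005 over 364 pairs, 36 of them over 0.1), so the numbers were not taken to pair the libraries. With the number as a replicate block, 8 of 10 genes differed in rhythm, 1 in mean and 7 with the 12 h offset, and Wipi1 at ZT0 (adjusted p = 0.0503) and Map1lc3b at ZT24 (0.0534) lost their calls. The median-of-ratios factors of the libraries lay between -0.07 and 0.04 on the log2 scale, so this scaling moved all genes little. Adding the length index as covariate ended the calls of Wipi1 at ZT0 (adjusted p = 0.053) and Bnip3 at ZT4 (0.14), and median-of-ratios scaling that of Bnip3 at ZT4 (0.0504). An exact rank test in place of the cosine called 7 of the 10 genes rhythmic under DRF and 7 under NRF. The shares of all genes given in the text come from the main fits and were not counted under any of the alternatives. The labels give no batch. The recovered counts are not reads, so counting error is unknown. With 4 libraries a group the difference of Gabarapl1 at ZT20 missed the threshold (0.081), and it passed among genes with a mean scaled count of at least 1 (0.0495) and without replicate 1 (0.035).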
